A study of Mus musculus with 8 samples.

Results

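The type I interferon response genes described here are a list of 38 interferon-stimulated genes, out of 24369 gene symbols in the count table. They were chosen by name, with earlier results of these data known. The cells came from MC38-EGFP tumours, grown from a mouse colon carcinoma line that carries green fluorescent protein, in mice of genotype WT. Conventional dendritic cells of type 1 (cDC1) and type 2 (cDC2) were taken from tumour tissue by fluorescence-activated sorting and divided by EGFP signal, so an EGFP-positive cell is one that gave the fluorescence of the tumour line's marker. The 4 groups, EGFP- cDC1, EGFP+ cDC1, EGFP- cDC2 and EGFP+ cDC2, hold 2 libraries each, and every group shares the tumour and the genotype. The labels name no treatment, mouse age or sex for these groups, and their cell type field reads colon cancer where the titles read cDC1 or cDC2. They do not say that the 2 libraries of a group came from separate animals, so p-values measure only the spread between these libraries, which may be technical.

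Type I interferons are secreted proteins that bind a receptor built from Ifnar1 and Ifnar2 and, through the kinases Jak1 and Tyk2, activate a complex that includes Stat2 and Irf9. That complex binds a short DNA element, the interferon-stimulated response element, and switches on the genes listed here, many of which sense viral nucleic acids or block viral growth. In tumours, cDC1 are known for presenting tumour antigen to CD8 T cells, and interferon signalling in dendritic cells is known to aid that task. Several of the genes, the guanylate-binding proteins above all, also answer interferon gamma.

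The promoters were searched for this element because it is the shared address of the family. Of the 38 genes, 29 had a RefSeq promoter window (GRCm38.p6, 250 bases before to 50 bases after the start). The full element, searched on either strand as GAAA, any 2 bases, GAAA and a C, occurred in the windows of 14 of these 29 genes (48.3%), against 0.944% of 27025 genes with a window. The shorter core, the same letters without the final C and so part of every full match, occurred in 17 (58.6%) against 3.99%. A gamma-activated site spelled TTCNNNGAA, the element of interferon gamma signalling, occurred in 8 (27.6%) against 9.55%. No window was found for Mx1, Zbp1, Ifi204, Parp14, Mx2, Dhx58, Rtp4, Oas2 and Usp18.

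The stretches below belong to genes on which the results turn: Ifi205, 3 guanylate-binding protein genes with lower levels in cDC1, Isg15, whose levels overlapped between the subsets, and 3 Ifit genes that had no count in at least 1 library. They are printed 5′ to 3′ along the gene's strand, with the matched letters in capitals, and all lie before the start site.
Ifi205 (chr1:174031850-174031919, minus strand, core only): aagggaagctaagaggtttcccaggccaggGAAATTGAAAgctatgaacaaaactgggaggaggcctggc
Gbp2 (chr3:142620573-142620643, plus strand): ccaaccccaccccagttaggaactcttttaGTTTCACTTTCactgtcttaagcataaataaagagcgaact
Gbp3 (chr3:142559968-142560043, plus strand): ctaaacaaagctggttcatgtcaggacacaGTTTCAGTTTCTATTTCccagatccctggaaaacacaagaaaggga
Gbp7 (chr3:142530252-142530322, plus strand): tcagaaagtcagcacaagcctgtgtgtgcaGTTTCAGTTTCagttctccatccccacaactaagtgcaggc
Isg15 (chr4:156200850-156200926, minus strand): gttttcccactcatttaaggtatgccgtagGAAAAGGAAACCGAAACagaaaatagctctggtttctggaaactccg
Ifit1 (chr19:34640754-34640843, plus strand): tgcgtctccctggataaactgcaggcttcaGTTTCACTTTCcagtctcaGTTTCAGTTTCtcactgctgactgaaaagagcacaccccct
Ifit3 (chr19:34583342-34583446, plus strand): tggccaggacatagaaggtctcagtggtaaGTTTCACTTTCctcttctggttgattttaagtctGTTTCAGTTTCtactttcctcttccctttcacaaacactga
Ifit3b (chr19:34607738-34607842, plus strand): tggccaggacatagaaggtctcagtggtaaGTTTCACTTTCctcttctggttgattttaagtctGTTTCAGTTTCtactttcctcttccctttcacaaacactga
The Ifit3 and Ifit3b stretches differ at 0 of 105 bases. The windows of Irf7 and Ifi35 held no match to either form of the response element. A match is a run of letters and not a measured binding site.

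Library totals ran from 17869441 to 22195681 counts, of which the ribosomal RNA precursor Rn45s took 19.4 to 35.6%. Levels are given as CPM, a library's counts scaled to a fixed total and then by TMM, and 3 counts correspond to between 0.135 and 0.168 CPM before TMM scaling. The summed cDC1 markers ran from 1862 to 3820 CPM in cDC1 libraries and from 135 to 399 CPM in cDC2 libraries. The 8 cDC2 markers summed to 905 to 949 CPM in cDC2 libraries and 33.0 to 396 CPM in cDC1 libraries. By counts, Sirpa, Itgam and Klf4 were higher in every cDC2 library than in any cDC1 library. Irf4, Cd209a, Mgl2, Clec10a and Cd7 overlapped between the subsets. Mgl2 had 4718 counts in EGFP- cDC1 replicate 2 and 535 to 3344 in the cDC2 libraries. The 5 markers shared by both subsets summed to 55.0 to 95.1 CPM in cDC2 and 178 to 529 CPM in cDC1 libraries. In the cDC2 libraries Flt3 had 0 to 200 counts and Zbtb46 0 to 21, while Itgax had 963 to 1856. The subset names follow the sample titles. The cDC2 gate also carried macrophage and monocyte markers: all 12 had counts in every library, with sums of 18494 to 39162 CPM in cDC2 libraries and 390 to 11595 CPM in cDC1 libraries. Of the 8 plasmacytoid dendritic cell markers, whose sum ran from 82.4 to 167 CPM in cDC1 and from 126 to 288 CPM in cDC2 libraries, Ly6d, Klk1 and Spib were at 0 in all 8 libraries. Siglech reached at most 2.49 CPM, Cox6a2 1.98 CPM and Ccr9, in EGFP+ cDC1 replicate 1, 17.5 CPM. Tcf4 was in every library at 6.48 to 30.8 CPM, and most of the sum was Bst2, which is also one of the 38 genes. The part of these markers in the results was not tested. In bulk libraries such as these, fewer cells of a type and less RNA per cell cannot be told apart. The EGFP+ cDC1 libraries stood apart, with a Pearson correlation across genes between replicates of 0.629 (log2 of CPM + 1) against 0.850 to 0.898 in the other groups. Replicate 2 held 11595 CPM of macrophage markers, mostly Lyz2 (125002 counts), and 5952 CPM of mature regulatory dendritic cell markers, mostly Ccr7 (78342 counts). Replicate 1 held 390 and 546 CPM. Adgre1 and Fscn1 on these lists went the other way, with 952 and 1794 counts in replicate 1 and 6 and 303 in replicate 2. Replicate 1 also carried 807 CPM of the list of epithelial and stromal markers. That sum was mostly Sparc (15412 counts), and Epcam, Krt8, Krt18 and Krt20 had 0 counts there.

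All 38 genes had counts and passed the filter on low counts that left 11394 genes for testing. Across roles, subset over both fractions was the only one of the 7 contrasts tested in which any of them passed the threshold, an adjusted p under 0.05 by edgeR's quasi-likelihood test. Over both EGFP fractions, 2 of 38 genes (5.26%), Ifi205 and Irf7, were higher in cDC1 and 0 were lower, against 0.816% of all genes tested that were higher and 0.5% that were lower (1.32% in either direction). At an unadjusted p under 0.05, 7 were higher and 3 were lower in cDC1, in all 10 of 38 where 13.5% of all genes reached that level. DESeq2 called 10 of the 38 (6 higher, 4 lower) and 10.2% of all genes, and voom with library weights called 7 (4 higher, 3 lower) and 7.65% of all genes. The median log2 difference, cDC1 minus cDC2, was 0.22 over the 38 genes and -0.28 over all genes tested, with 22 genes on the positive and 16 on the negative side.

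**Figure D1:**
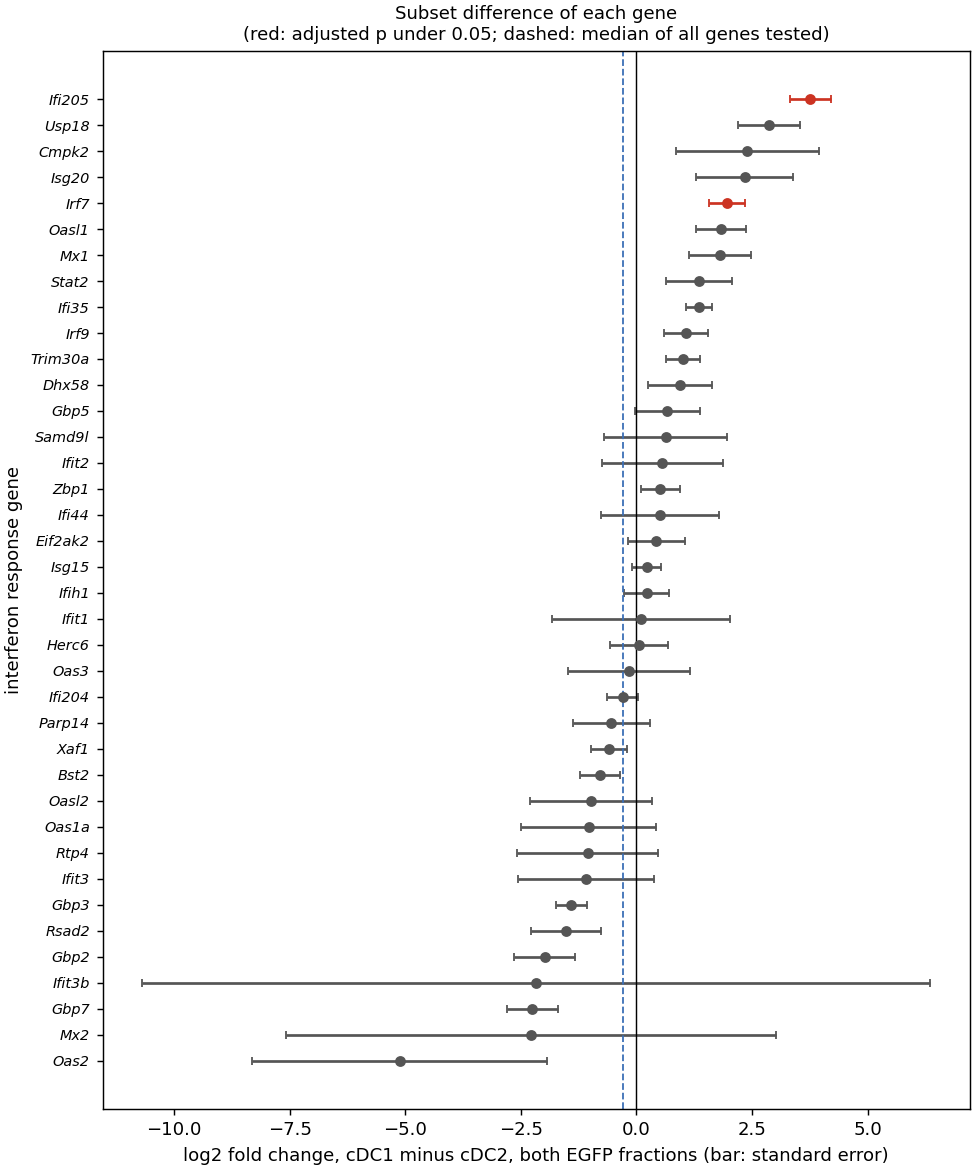
Log2 fold change of each of the 38 genes between cDC1 and cDC2 over both EGFP fractions (horizontal axis; bars are standard errors, 4 libraries a side), ordered by size. Ifi205 at 3.76 and Irf7 at 1.96, in red, were past the threshold, and the dashed line marks the median of all genes tested at -0.28.

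Among the nucleic acid sensors, Ifi205 was the gene that separated the subsets most. It encodes a member of the AIM2-like receptor family, whose genes lie in a cluster on chromosome 1 (Ifi205 at chr1:174011998-174031810, minus strand, GRCm38). Its level was 1810 and 1096 CPM in EGFP- cDC1 and 1512 and 1039 CPM in EGFP+ cDC1. In cDC2 it was 134 and 73.5 CPM in the EGFP- libraries and 149.7 and 43.4 CPM in the EGFP+ libraries. Every cDC1 library was thus above every cDC2 library, with means of 1364 ± 365 and 100.2 ± 50.2 CPM (SD, n = 4). The log2 fold change was 3.76 ± 0.45 (SE), with an adjusted p of 0.00435 by edgeR. Taken within one fraction, with 2 libraries a side, the differences were 3.81 ± 0.68 (adjusted p = 0.0891) in EGFP- cells and 3.72 ± 0.67 (adjusted p = 0.0746) in EGFP+ cells by edgeR, the same size without passing the threshold. About 18.6% of the 50-base words of Ifi205 transcripts occur in other genes, nearly all in Ifi211, so some of its reads may have been split between copies.

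Its neighbour Ifi204, also an AIM2-like receptor, showed no such separation. Ifi204 was at 122, 62.3, 129 and 121 CPM in the cDC1 libraries, in the order EGFP- replicates 1 and 2 and EGFP+ replicates 1 and 2. In the cDC2 libraries, in the same order, it was at 162, 135, 149.9 and 84.3 CPM. The ranges overlapped, and the log2 difference between subsets was -0.30 ± 0.34 (adjusted p = 0.812, edgeR). A test of the difference between Ifi205 and Ifi204 was not made. Dhx58, which encodes the RNA helicase LGP2, was at 75.5, 16.3, 30.6 and 112 CPM in the cDC1 libraries and at 55.1, 34.1, 28.3 and 11.6 CPM in the cDC2 libraries. The subsets overlapped, with a log2 difference of 0.94 ± 0.69, and Ifih1, Zbp1 and Eif2ak2 lay between 0.22 and 0.51.

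Of the signalling factors, Irf7 was higher in cDC1. It is the transcription factor that amplifies type I interferon production and is itself an interferon target (chr7:141262706-141266481, minus strand, GRCm38). Irf7 was at 240.0 and 107 CPM in EGFP- cDC1, 294 and 157 CPM in EGFP+ cDC1, 69.0 and 50.5 CPM in EGFP- cDC2 and 49.1 and 37.4 CPM in EGFP+ cDC2. The lowest cDC1 library was above the highest cDC2 library. The means were 199 ± 83.6 and 51.5 ± 13.1 CPM (SD, n = 4), with a log2 fold change of 1.96 ± 0.39 and an adjusted p of 0.0449 by edgeR. The call was narrow. It was held in 7 of 15 alternative fits, and it was lost, with adjusted p of 0.0786 to 0.189, when EGFP- cDC1 replicate 1 or any single one of the 4 cDC2 libraries was left out. By contrast the Ifi205 call was held in all 15. The exons of Irf7 overlap those of Phrf1 on the opposite strand by 45 bases, and Phrf1 lay between 2.88 and 28.0 CPM.

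Irf9 and Stat2, parts of the interferon-activated complex, had differences in the same direction that did not pass. Irf9 was at 52.5, 57.3, 33.3 and 81.6 CPM in the cDC1 libraries and at 29.7, 21.7, 43.0 and 12.6 CPM in the cDC2 libraries, with a log2 difference of 1.07 ± 0.48 (adjusted p = 0.376, edgeR). Stat2 ranged from 7.16 to 82.9 CPM in cDC1, the lowest value being EGFP+ replicate 2, and from 12.6 to 32.3 CPM in cDC2. All 3 signalling genes were therefore on the positive side, with 1 past the threshold.

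The genes around Isg15 behaved unalike. Isg15, a ubiquitin-like modifier and a common gauge of interferon exposure, was at 89.3, 63.2, 114 and 69.7 CPM in the cDC1 libraries and at 78.9, 45.6, 77.8 and 86.5 CPM in the cDC2 libraries. These ranges overlapped almost entirely, and the log2 difference was 0.23 ± 0.32 (adjusted p = 0.855, edgeR). Usp18, the protease that removes Isg15 from proteins and damps the receptor, was at 135, 56.2, 107 and 61.6 CPM in the cDC1 libraries. In the cDC2 libraries it was at 2.05, 14.9, 12.02 and 23.7 CPM, below every cDC1 library. Its log2 difference was 2.87 ± 0.68, but its adjusted p of 0.0909 missed the threshold. Herc6, the mouse ligase for Isg15, averaged 25.0 ± 12.8 CPM in cDC1 and 24.4 ± 16.6 CPM in cDC2 (SD, n = 4).

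The guanylate-binding proteins, interferon-induced GTPases that attack membranes around microbes, had lower mean levels in cDC1 for 3 of their 4 genes, and none passed the threshold. Their genes lie side by side on chromosome 3, from the start of Gbp5 at 142493978 to the end of Gbp2 at 142638008. Gbp2 was at 124, 62.4, 40.9 and 300.3 CPM in the cDC1 libraries and at 777, 260.1, 679 and 277 CPM in the cDC2 libraries. One cDC1 library, EGFP+ replicate 2, was within the cDC2 range, and the log2 difference was -1.98 ± 0.66 (adjusted p = 0.241, edgeR). Gbp3 was at 35.1, 41.8, 41.1 and 59.6 CPM in the cDC1 libraries and at 153, 90.9, 144 and 79.3 CPM in the cDC2 libraries. These did not overlap, with a log2 difference of -1.40 ± 0.34 (adjusted p = 0.0979, edgeR). Gbp7 was at 31.9, 11.0, 6.61 and 28.0 CPM in the cDC1 libraries and at 120.1, 79.8, 111 and 57.9 CPM in the cDC2 libraries, again without overlap. Its log2 difference was -2.25 ± 0.55 (adjusted p = 0.0976, edgeR). Gbp5 went the other way, at 0.67 ± 0.70, with overlapping libraries. The summed macrophage markers given above were higher in every cDC2 library than in any cDC1 library, and their part in the guanylate-binding protein levels was not tested.

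Of the other dynamin-like GTPases, Mx1, which blocks influenza and related viruses, was at 27.8, 53.6, 25.3 and 10.3 CPM in the cDC1 libraries. It was at 8.52, 6.94, 8.22 and 6.83 CPM in the cDC2 libraries, all below cDC1, with a log2 difference of 1.82 ± 0.67 (adjusted p = 0.281, edgeR). Mx2 was near the limit of detection, with 0 counts in 3 of 8 libraries and at most 6.54 CPM.

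Among the remaining effectors, Ifi35, which binds other interferon-induced proteins, came next to the threshold. It was at 198, 157, 169 and 124 CPM in the cDC1 libraries and at 66.0, 81.5, 66.3 and 41.3 CPM in the cDC2 libraries, without overlap. The log2 difference was 1.36 ± 0.28 and the adjusted p 0.0575 by edgeR. An antisense gene overlaps 290 bases of its exons. For subset over both fractions Ifi35 passed in 5 of 15 alternative fits, Gbp7 in 4, Usp18 and Gbp2 in 3 each and Gbp3 in 2. Mx1 and Oasl1 passed in 1 each, and Gbp5, Irf9, Isg15, Stat2 and Trim30a in 0. Trim30a, a regulator of innate signalling, was at 225, 121, 90.3 and 216 CPM in the cDC1 libraries and at 77.3, 62.1, 77.1 and 111 CPM in the cDC2 libraries, with a log2 difference of 1.01 ± 0.37 (adjusted p = 0.281, edgeR). Bst2, the tetherin that holds budding viruses at the cell surface, is treated with the EGFP contrast below. Over all roles, 5 genes had every cDC1 library above every cDC2 library (Irf7, Usp18, Ifi205, Mx1 and Ifi35), and 3 had every one below (Gbp3, Gbp7 and Xaf1). The shares over all genes tested were 3.96% and 8.56%.

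**Figure D2:**
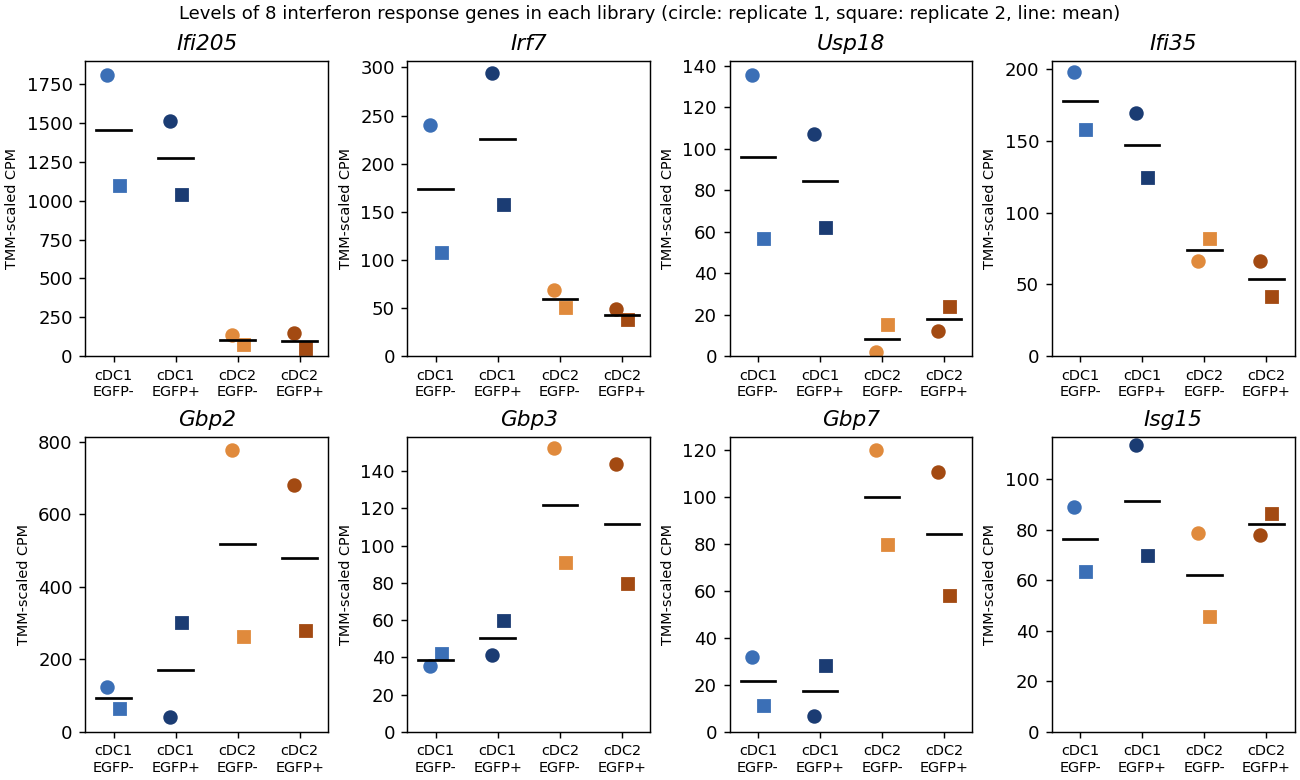
Level of 8 genes in each library, in TMM-scaled CPM on linear axes from 0 (circles replicate 1, squares replicate 2, lines group means), chosen after their values were seen. Ifi205, Irf7, Usp18 and Ifi35 lie higher in all 4 cDC1 libraries, Gbp3 and Gbp7 lower, Gbp2 overlaps through EGFP+ cDC1 replicate 2, and Isg15 overlaps between the subsets.

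Within one EGFP fraction, with 2 libraries a side, none of the 38 genes passed by edgeR, against 0.36% of all genes in EGFP- cells and 0.228% in EGFP+ cells. At an unadjusted p under 0.05 they numbered 9 in EGFP- and 8 in EGFP+ cells, against 9.58% and 15.9% of all genes. In EGFP- cells 10 genes had both cDC1 libraries above both cDC2 libraries and 9 had both below, where the shares over all genes were 21.9% and 26.5%. In EGFP+ cells these numbers were 9 and 8, with shares over all genes of 13.7% and 33.2%. Ifi205, Irf7, Usp18, Mx1 and Ifi35 were above, and Gbp3, Gbp7 and Xaf1 below, in both fractions.

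Per kilobase of exon, the order of the genes differed between the subsets. In cDC1 it was led by Ifi205 at 327 ± 87.3 CPM per kilobase, followed by Isg15 at 111 ± 29.95, Bst2 at 97.9 ± 43.0 and Ifi35 at 93.8 ± 17.6 (SD, n = 4). The ranges of the last 3 overlapped, while Ifi205 was above all of them in each library range. In cDC2 the first places went to Gbp2 at 198 ± 107 CPM per kilobase, Bst2 at 175 ± 80.7 and Isg15 at 95.5 ± 24.0. There the ranges of Gbp2 and Bst2 overlapped, while Bst2 was above Isg15 in each library range. In both subsets Oas2, Mx2, Ifit3b and Ifi44 were the 4 lowest, at 2.13 CPM per kilobase or less.

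The EGFP contrast asked whether cells with the tumour marker differed from cells of the same subset without it. None of the 38 genes passed the threshold by edgeR in cDC1, in cDC2 or over both subsets, where 0.0% of all genes tested passed. At an unadjusted p under 0.05 the counts of the 38 genes were 1, 0 and 0, against 12.7%, 2.63% and 5.22% of all genes. By DESeq2 they were also 0 at the adjusted threshold in all 3 contrasts, where that tool called 11.6%, 0.974% and 1.64% of all genes. By limma voom with library weights they were 0 as well, against 0.0%, 0.0176% and 0.0351%. Over both subsets, 19 genes were on the positive and 19 on the negative side, with a median log2 difference of 0.00 against -0.05 over all genes. Within cDC1 the medians were 0.02 and -0.04, and within cDC2 -0.05 and 0.08. The cDC1 median of the 38 genes was -0.83 without EGFP+ cDC1 replicate 2 and 0.54 without EGFP- cDC1 replicate 1.

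In cDC2, 8 of the 38 genes had both EGFP+ libraries above both EGFP- libraries and 4 had both below, where the shares over all genes were 22.6% and 19.2%. In cDC1 there were 2 above (Gbp5 and Isg20) and 2 below (Oas2 and Mx1), against 11.5% and 24.0%. The gene of smallest p in cDC2 was Bst2. Its level was 106 and 104 CPM in EGFP- cDC2 and 259 and 165 CPM in EGFP+ cDC2, a log2 difference of 1.02 ± 0.44 (adjusted p = 1.0, edgeR). In cDC1 the direction was the opposite, with 145 and 71.2 CPM in EGFP- cells and 58.0 and 79.2 CPM in EGFP+ cells, a log2 difference of -0.66 ± 0.44. The difference between these 2 effects was -1.67 ± 0.62 and did not pass (adjusted p = 0.438, edgeR). None of the 38 genes passed in this interaction contrast by edgeR, DESeq2 or voom, against 0.0%, 6.21% and 0.00878% of all genes. By edgeR 2 had an unadjusted p under 0.05, against 10.4% of all genes.

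Dhx58 was, after Bst2 and Ifit3b, the third gene by p in the cDC2 contrast, with both EGFP+ cDC2 libraries below both EGFP- ones and a log2 difference of -1.16 ± 0.91 (adjusted p = 1.0, edgeR). Oas2 and Ifit3b, the genes of smallest p in the cDC1 contrast, were at 10.7 CPM or less in every library. Oas2, a sensor that makes the second messenger 2-5A, was at 2.197 and 0.0466 CPM in EGFP- cDC1 and had 0 counts in both EGFP+ cDC1 libraries, at least 14.2-fold lower against a floor of 3 counts over the group. That bound rests on EGFP- cDC1 replicate 1, with 47 counts, since replicate 2 had 1 count. The fitted log2 difference was -7.50, and -3.07 without EGFP- cDC1 replicate 1. It was at 4.58 and 2.09 CPM in EGFP- cDC2 and at 5.78 and 10.7 CPM in EGFP+ cDC2. Ifit3b, a close copy of Ifit3, was at 5.66 and 0 CPM in EGFP- cDC1, at 0 in both EGFP+ cDC1 libraries, at 0.162 and 0.267 CPM in EGFP- cDC2 and at 4.53 and 5.15 CPM in EGFP+ cDC2. Neither passed in any contrast by edgeR, while DESeq2 called Oas2 as lower in cDC1 in EGFP+ cells and over both fractions. Over both subsets the 3 genes of smallest p were Oasl1, Ifi35 and Ifi44, none past the threshold (adjusted p = 1.0 for each, edgeR). Their log2 differences were 0.76 ± 0.52, -0.36 ± 0.28 and 1.54 ± 1.31. Ifi44, whose function is less well known, was at 0.327 and 11.6 CPM in EGFP- cDC1, 1.36 and 39.0 CPM in EGFP+ cDC1, 3.13 and 6.63 CPM in EGFP- cDC2 and 13.5 and 10.9 CPM in EGFP+ cDC2. It overlapped between fractions in cDC1 and did not in cDC2.

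**Figure D3:**
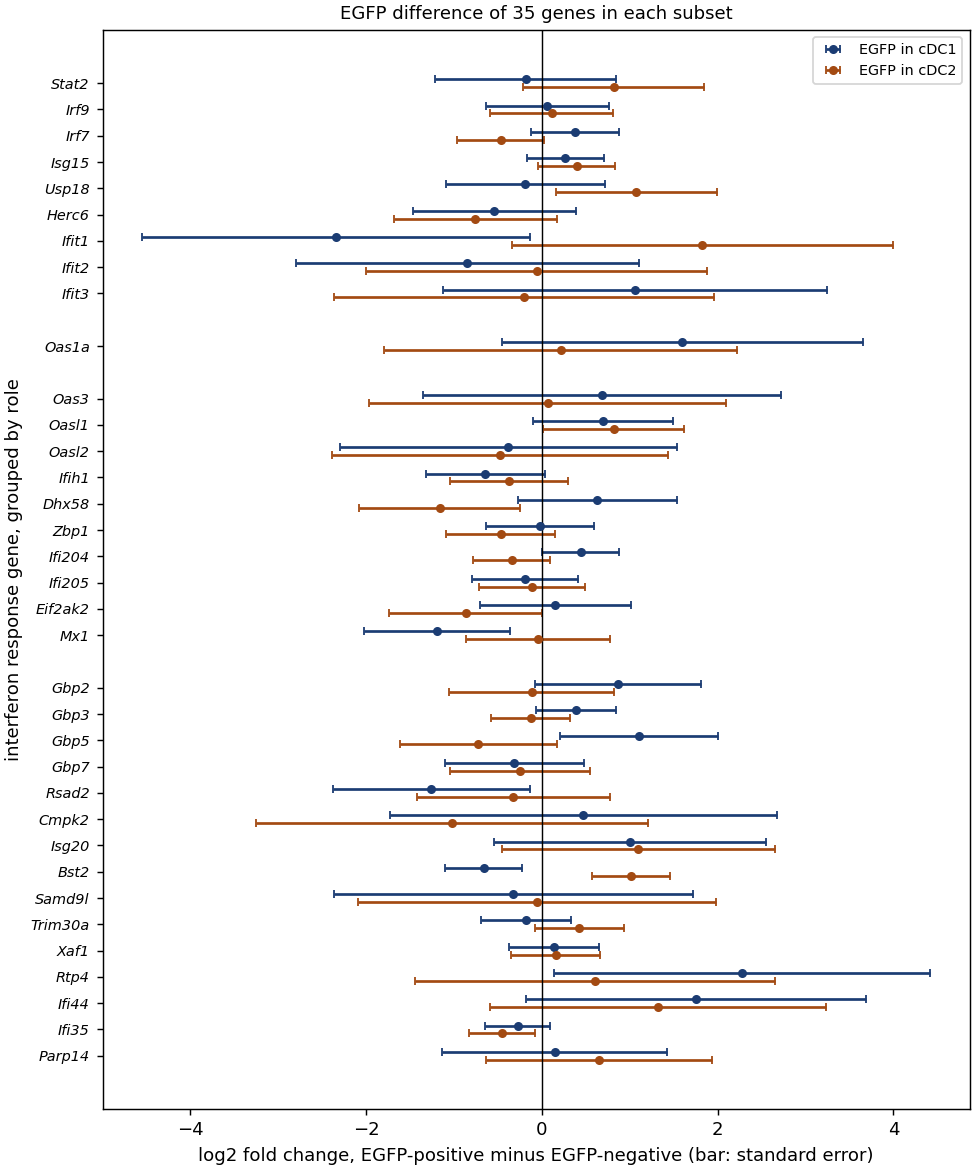
Log2 fold change between EGFP+ and EGFP- libraries in cDC1 (blue) and cDC2 (orange) for 35 genes, with standard errors, 2 libraries a group. Ifit3b, Oas2 and Mx2 are left out because of their few counts, and no gene was past the threshold in either subset.

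The 2 EGFP+ cDC1 libraries disagreed for all genes as for these: 55.3% of the 38 genes and 51.8% of all genes tested differed over 2-fold between them. Between the 2 EGFP- cDC1 libraries the shares were 55.3% and 35.4%. In EGFP+ cDC1 replicate 1, 10 of the 38 genes had 0 counts: Ifit1, Ifit2, Ifit3, Ifit3b, Oas1a, Oas2, Oas3, Oasl2, Samd9l and Rtp4. In replicate 2, 4 did (Ifit3b, Oas2, Mx2 and Cmpk2), and in the other 6 libraries at most 1. Zeros were common in that library, where 27.8% of all genes tested had no count against 26.3% of the 38. Among genes whose median in the other 7 libraries was at least 10 CPM, a level chosen after the values were seen, 8 of 32 interferon genes (25.0%) were at 0 in replicate 1, against 8.42% of 5604 such genes. In replicate 2 the shares were 3.23% and 5.76%. These are descriptions of single libraries and carry no test.

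**Figure D4:**
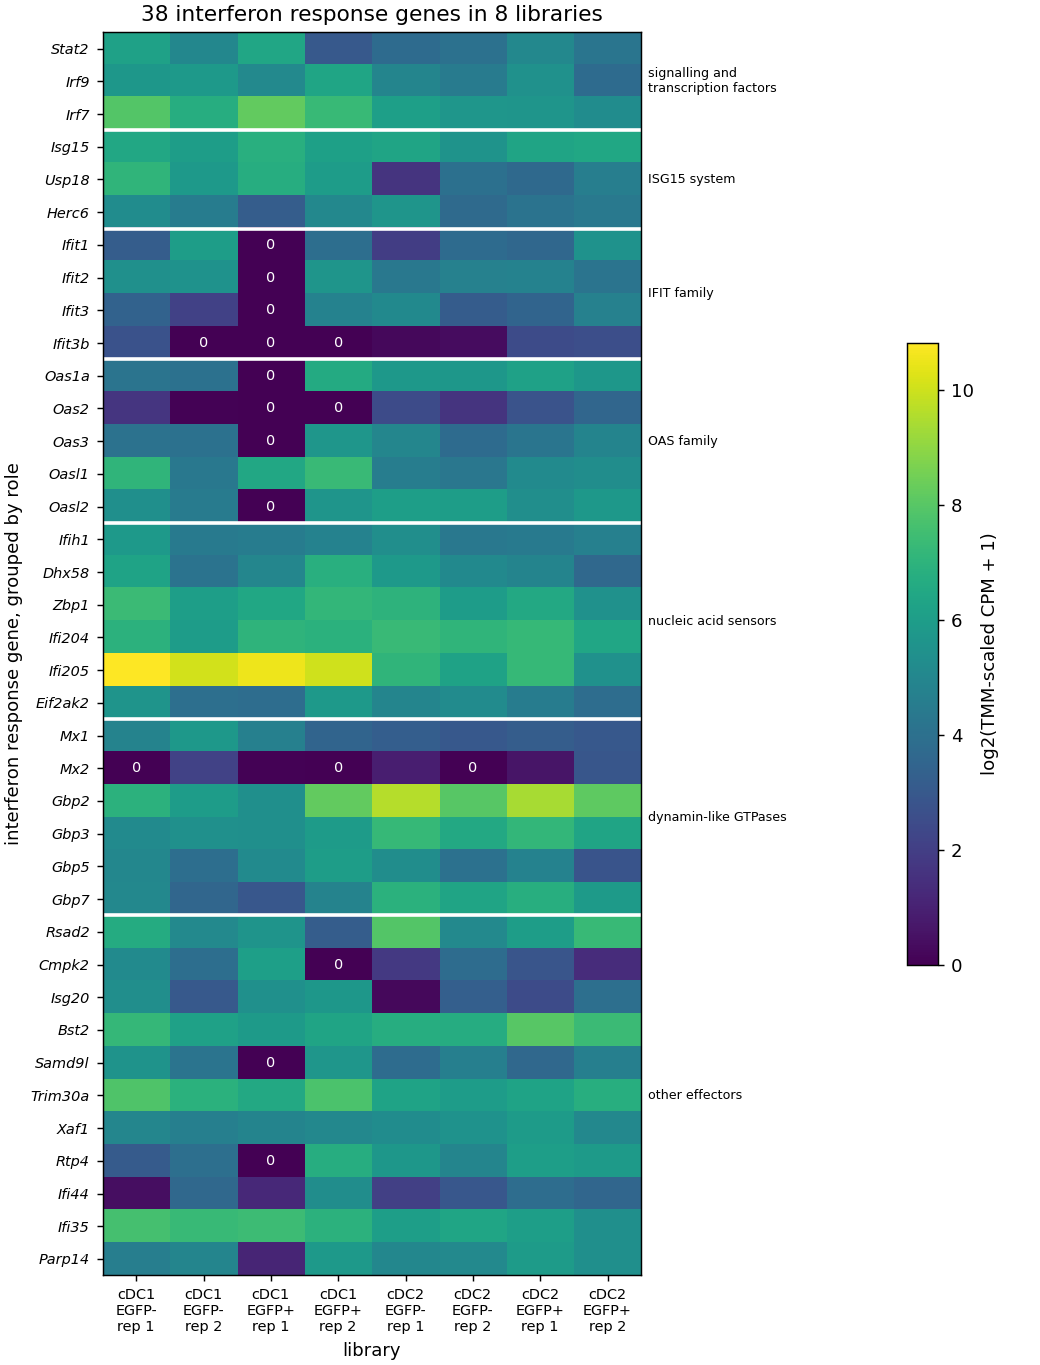
Level of all 38 genes in each of the 8 libraries as log2 of TMM-scaled CPM + 1 (colour), with rows grouped by role and cells without a count marked 0. The column of EGFP+ cDC1 replicate 1 holds 10 such cells, 3 of them in Ifit1, Ifit2 and Ifit3, while Ifi205 is bright in the 4 cDC1 columns.

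The Ifit and Oas families show the pattern. Ifit2, an RNA-binding inhibitor of translation, was at 42.4 and 44.9 CPM in EGFP- cDC1 and at 0 and 48.6 CPM in EGFP+ cDC1. It was at 19.2 and 25.7 CPM in EGFP- cDC2 and at 26.4 and 16.7 CPM in EGFP+ cDC2. Ifit1, which binds RNA with an unmethylated cap, was at 8.23 and 63.6 CPM in EGFP- cDC1, at 0 and 14.2 CPM in EGFP+ cDC1, at 2.91 and 12.9 CPM in EGFP- cDC2 and at 11.3 and 44.9 CPM in EGFP+ cDC2. Ifit2 was thus seen in 7 libraries and missing from 1, while Ifit1 varied several-fold within every group.

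Oas1a, another maker of 2-5A, was at 16.7 and 15.5 CPM in EGFP- cDC1 and at 0 and 97.8 CPM in EGFP+ cDC1, the lowest and the highest of the 8 libraries. In cDC2 it was at 54.3 and 52.4 CPM in EGFP- and at 72.4 and 51.3 CPM in EGFP+ cells. Rtp4, a receptor transporter protein that restrains flaviviruses, did the same, at 7.66 and 14.4 CPM in EGFP- cDC1 and at 0 and 107 CPM in EGFP+ cDC1. Oasl1, a brake on Irf7 translation, was not among the zeros. It was at 134, 19.2, 89.0 and 159.9 CPM in the cDC1 libraries and at 23.0, 18.6, 34.7 and 38.4 CPM in the cDC2 libraries, with a log2 difference between subsets of 1.83 ± 0.54 (adjusted p = 0.18, edgeR). Of the words of Oas1a, 57.6% are shared with Oas1g, and 51.2% of those of Ifit3 with Ifit3b, so the levels of these genes depend on how the counting split shared reads.

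The EGFP contrast in cDC1 therefore turned on which of these libraries was kept. With EGFP+ cDC1 replicate 2 left out, 9 of the 38 genes passed the edgeR threshold as lower in EGFP+ cDC1 and 0 as higher, against 6.68% and 1.73% of all genes tested. They were Ifit1, Ifit2, Ifit3, Oas1a, Oas3, Oasl2, Samd9l, Rtp4 and Parp14. With replicate 1 left out instead, Oas1a (log2 difference 2.61 ± 0.42, adjusted p = 0.0123) and Rtp4 (3.28 ± 0.54, adjusted p = 0.0132) passed edgeR as higher and Cmpk2 as lower, against 1.93% and 4.22% of all genes. Oas1a and Rtp4 were called in opposite directions by the 2 fits. In each fit the lone library was assumed to vary like the other groups. The same library moved the subset contrast in EGFP+ cells, where leaving out replicate 2 gave 3 genes higher and 10 lower in cDC1, against 1.92% and 8.28% of all genes. The marker sums given above differed between these libraries in the macrophage, mature regulatory and stromal lists, and their part in the interferon gene levels was not tested.

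Replicates also differed in EGFP- cDC1, where 29 of 38 genes were higher in replicate 1. The median log2 difference, replicate 1 minus replicate 2, was 0.97 over the 38 genes and 0.00 over all genes tested. Irf7, Zbp1, Dhx58 and Oasl1 were among those higher in replicate 1, and Ifit1, Mx1 and Ifi44 among the 9 that were higher in replicate 2. The size of the replicate difference, without sign, had a median of 1.14 over the 38 genes against 0.62 over all genes in EGFP- cDC1. It was 1.26 against 1.07 in EGFP+ cDC1, 0.76 against 0.52 in EGFP- cDC2 and 0.81 against 0.63 in EGFP+ cDC2. The median size of the replicate difference was thus larger over the 38 genes than over all genes in each of the 4 groups. The 2 sets were not matched on level. Library medians of log2 of CPM + 1 were 4.61 to 5.77 over the 38 genes and 3.15 to 3.66 over all genes tested. The part of level in this difference was not tested.

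The other genes of the pathway, a list of 108 of which 83 were tested, were read from ligand to target. Of 21 ligand genes, 19 had 0 counts in all 8 libraries. Ifnb1, interferon beta, was seen at 0.701 CPM in EGFP- cDC1 replicate 1 and at 1.44 CPM in EGFP+ cDC2 replicate 2, and Ifnk at 1.13 CPM in EGFP- cDC2 replicate 1. The receptor was present in every library, with Ifnar1 at 41.7 to 95.0 CPM in cDC1 and 62.4 to 130.2 CPM in cDC2, and Ifnar2 at 37.5 to 115 CPM in cDC1 and 141 to 164 CPM in cDC2. Differences between subsets were -0.42 ± 0.39 for Ifnar1 and -0.89 ± 0.35 for Ifnar2 on the log2 scale, neither past the threshold.

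Over both fractions, 3 of the 83 genes were higher in cDC1 and 2 were lower (6.02%), against 0.816% and 0.5% of all genes tested (1.32% in either direction), and 0 passed in any of the other 6 contrasts by edgeR. Tlr3, the endosomal sensor of double-stranded RNA, averaged 54.9 ± 28.2 CPM in cDC1 and 5.45 ± 2.17 CPM in cDC2 (SD, n = 4), a log2 difference of 3.31 ± 0.55 (adjusted p = 0.022, edgeR). Irf8, which directs cDC1 development and is on the cDC1 marker list, averaged 1063 ± 469 and 214 ± 85.1 CPM (adjusted p = 0.0346, edgeR). Tgtp1, an interferon gamma-induced GTPase, averaged 136 ± 114 and 8.58 ± 4.10 CPM (adjusted p = 0.0334, edgeR), though reads of its near-identical copy Tgtp2 may not be separable. Tgtp2 itself overlapped between the subsets, with 156 to 1317 counts in cDC1 libraries and 439 to 2058 in cDC2 libraries. Cxcl9, a chemokine that draws T cells, was lower in cDC1 at 158 ± 46.6 against 546 ± 198 CPM (adjusted p = 0.0359, edgeR). Ikbke, a kinase that activates Irf3 and Irf7, was at 0 to 0.0466 CPM in cDC1 and 17.0 to 32.3 CPM in cDC2 (adjusted p = 0.0138, edgeR). Each of these 5 calls was lost in some of 15 alternative fits, 6 of them for Tlr3, Irf8, Tgtp1 and Cxcl9 and 4 for Ikbke. The pathway list holds 15 interferon gamma targets, with Tgtp1, Cxcl9, Gbp4, Gbp6, Gbp8, Gbp9 and Gbp2b among them. Of these, 2 were on the positive and 13 on the negative side. Their median log2 difference was -0.80, against -0.28 over all genes tested.

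The remaining factors did not differ past the threshold. Irf1 was at 139 and 74.8 CPM in EGFP- cDC1, 375 and 462 CPM in EGFP+ cDC1, 536 and 159.5 CPM in EGFP- cDC2 and 261 and 97.5 CPM in EGFP+ cDC2. Its EGFP difference in cDC1 was 1.97 ± 0.69 on the log2 scale (adjusted p = 0.322, edgeR). Irf3 lay between 5.47 and 41.7 CPM. Cxcl10 ranged from 9.23 to 758 CPM in cDC1 and from 317 to 1257 CPM in cDC2, and within EGFP+ cDC1 it was at 9.23 CPM in replicate 1 and 758 CPM in replicate 2, the same order as Oas1a and Rtp4.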

How the data were processed

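Per the labels' protocols, RNA from sorted cells was amplified by a low-input method and made into libraries with a KAPA kit. The submitters' processing notes name Trimmomatic 0.39, STAR 2.7.5c, Cufflinks 2.2.1 and mm10; for the counter, annotation and strand setting, nothing is given in the sources used here. The authors deposited whole-number read counts for 24369 symbols, and all 8 columns matched samples by name.

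Tests used edgeR 4.0.16 under R 4.3.3: a filter by filterByExpr, TMM scaling, robust glmQLFit with glmQLFTest, and Benjamini-Hochberg adjustment over 11394 genes. A 4-group model gave 5 contrasts, and an additive model of subset and EGFP gave the 2 pooled ones. The common dispersion was 1.28. A floor of 3 counts sets lower bounds and covers counting error only, since amplified reads that carry no molecular identifier do not stand for separate molecules. Of the members, 37 matched by symbol and Ifit3b by a RefSeq synonym. Exon lengths, overlaps and shared 50-base words came from GENCODE M21. The fit was tested on simulated data of lower dispersion than estimated here, so its recovery is not quoted.

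Members and lists were chosen with earlier results of these data known. Described in full were members past the threshold, the 2 most abundant of each role and the 3 of smallest p per contrast (19 in all), plus fixed pathway genes, of which 1 is not reported here; others, Gbp7, Mx1, Stat2 and Rtp4 among them, and the plotted genes were named after their values were seen. Alternatives were DESeq2 1.42.0, voom with library weights (limma 3.58.1), RLE scaling, other filters, a replicate block, only the compared libraries, no Rn45s, and each library left out.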

Additional observations from a re-analysis of the deposited data

How the results depend on the processing

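The Ifi205 difference between subsets over both fractions kept its direction and passed the threshold in all 15 alternatives (log2 3.51 to 4.25), while Irf7 kept its direction in all 15 and passed in 7 (1.67 to 2.23), missing it with RLE scaling (adjusted p = 0.0535), a filter of 10 CPM (0.0526) and the replicate block (0.0504). Alternatives were run for 38 pairs of gene and contrast, which are not the 38 genes. They were members of smallest p, genes past the threshold, pathway genes among them, and genes added because the text describes them. None of these pairs turned its direction in any alternative that gave a value, an outcome that the choice of pairs favoured. Outside these pairs directions did turn. For EGFP in cDC1, Oas1a was at 2.61 and Rtp4 at 3.28 without EGFP+ cDC1 replicate 1, and at -11.39 and -10.84 without replicate 2. The negative values rest on replicate 1 alone, where both genes had 0 counts, so their size is not a measured one. In the pairs, Ifit3b gave no value for EGFP in cDC1 where EGFP- cDC1 replicate 1 was left out, since no counts remained. Members past the threshold for subset over both fractions numbered 10 with DESeq2, against 10.2% of all genes, and 7 with voom (7.65%). They numbered 5 without a filter (236 genes in all) and 1 with RLE or with the replicate block, where the block left 82 genes. For RLE the count over all genes is not given here. Without a filter the number of genes tested is not given either, so those counts have no share beside them. For subset in EGFP- cells members past the threshold numbered 4 with DESeq2, where 830 of 11394 genes passed, and 2 with voom, where 528 did. They numbered 1 without a filter (112 genes in all), with only the compared libraries (292), or without both EGFP+ cDC1 libraries (392). For subset in EGFP+ cells they numbered 5 with DESeq2, where 1578 of 11394 genes passed, and 2 without a filter (153 genes in all). Voom gave 1 in EGFP+ cells, and its count over all genes is not given here. With each library left out in turn, members past the threshold ran from 1 to 5 for subset over both fractions, 0 to 2 for subset in EGFP- cells, 0 to 13 for subset in EGFP+ cells, 0 to 9 for EGFP in cDC1 and 0 to 8 for the interaction, and stayed at 0 for EGFP in cDC2 and over both subsets. All genes past the threshold then ran from 50 to 277, 1 to 465, 1 to 1273, 0 to 1050 and 0 to 668 in the first 5 contrasts, and were 0 in the last 2. DESeq2 called 1319 genes for EGFP in cDC1, 111 for EGFP in cDC2, 187 for EGFP over both subsets, 707 for the interaction, 830 and 1578 for subset in EGFP- and EGFP+ cells and 1160 over both fractions. Without a filter, 57, 29, 112, 153 and 236 genes were called for EGFP in cDC1, the interaction, subset in EGFP- cells, in EGFP+ cells and over both fractions. Voom called 2 for EGFP in cDC2, 4 for EGFP over both subsets, 1 for the interaction, 528 for subset in EGFP- cells and 872 over both fractions. Using only the compared libraries gave 292 for subset in EGFP- cells and 0 in EGFP+ cells, and leaving out both EGFP+ cDC1 libraries gave 392 in EGFP- cells. The causes were not tested. Replicate numbers were not treated as pairs. Titles of equal number share only the first part of a bracketed code, and the labels do not give its meaning. Correlations of replicate differences between groups ran from -0.22 to 0.04. The replicate block left 3, 0 and 82 genes for subset in EGFP- cells, in EGFP+ cells and over both fractions, and crossed numbers, added after seeing the data, gave 3 in EGFP+ cells. RLE scaling shifted the log2 differences of single genes by a median of 0.12 for EGFP in cDC1 and 0.14 for the interaction. Precision is limited by 2 libraries a group at a biological coefficient of variation of 1.13.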
